A study of Mus musculus with 4 samples.

Results

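Aminoacyl-tRNA synthetases are the enzymes that attach each amino acid to its own tRNA, the step that makes the genetic code readable by the ribosome. The group described here was the 20 cytosolic and 16 mitochondrial synthetase genes on a fixed list, with the 3 scaffold proteins that hold part of the cytosolic enzymes in one complex. Members were found by gene symbol in the platform annotation of the array, without use of any measured value. The list itself was chosen with earlier results of these data known. Of the 39 listed genes, 38 had a probe set that named them alone, 37 by the listed symbol and Mars through its gene ID, which carries the current symbol Mars1. Dars was not analysed here, and 1 probe set that named both Aars and Exosc6 was left out. The 38 genes, of 18193 named in the whole series, were read by 76 of its 45037 probe sets other than controls.

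The samples were Paneth cells, the antimicrobial secretory cells of the intestinal crypt base, cut from mouse tissue by laser capture. Both groups were of the same mixed C57BL/6 and 129ola strain background. One group was Atg16-hypomorph, that is with lowered function of the autophagy gene Atg16l1, and the other was wildtype, with 2 arrays each. The labels name no treatment, age or sex, and neither how the hypomorph allele was made nor how many cells were captured. They also do not say that replicates came from separate mice, so the p-values here reflect the spread of these 4 samples alone and that spread may be technical. In such bulk samples, fewer cells of a type and less RNA per cell cannot be told apart.

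Paneth cells make large amounts of secreted protein, and translation needs a steady supply of charged tRNA. Most of these enzymes serve the cytosol and carry names such as Gars or Kars, while separate nuclear genes, most with a 2 at the end of their name, encode the enzymes of the mitochondrial ribosome; Gars and Kars serve both compartments. Uncharged tRNA activates the kinase Eif2ak4 (GCN2), which starts the integrated stress response. In that response the transcription factor Atf4 binds C/EBP-ATF response elements, and genes of cytosolic synthetases are among its known targets.

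The RefSeq promoter windows of the members, from 250 bases before to 50 bases after the gene start on GRCm38.p6, were searched on both strands for the response element spelled TGATGNAAN. The element was in the window of 5 of the 30 member genes that had one (16.7%), against 1215 of 27025 genes of the table (4.50%). The 5 genes encode the cytosolic enzymes for tyrosine, glycine, alanine, isoleucine and threonine. The 5 stretches below, 1 per gene, are shown because they are places near the gene start where a synthetase promoter window holds these letters. Capitals mark the 9 bases of the element and lower case the 10 bases on either side, each printed 5′ to 3′ on the strand of the gene.
Yars, chr4:129189896-129189924, + strand: cgagctcagcTGATGCAACccgacgggac
Gars, chr6:55037960-55037988, + strand: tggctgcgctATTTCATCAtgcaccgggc
Aars, chr8:111033840-111033868, + strand: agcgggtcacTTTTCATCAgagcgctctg
Iars, chr13:49682126-49682154, + strand: cactgtcagtATTGCATCAcctccagacg
Tars, chr15:11399656-11399684, - strand: caggagtcccGTTGCATCAgctggttagc

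In Yars the element read in the direction of the gene, and in the other 4 stretches its letters were on the opposite strand, so that the capitals show the reverse complement. In these stretches it began within 31 bases of the gene start, but only matches near the start were chosen for display. That nearness was therefore set by the choice. A match is a description, not a site or a cause, and a window without these letters says nothing about the factor.

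The targeted gene, the arrays and the cell types were checked first. The bright Atg16l1 probe set read 966 and 995 intensity units in the hypomorph, against 1335 and 1183 in the wildtype. The hypomorph was lower on both arrays, by 0.35 on the log2 scale (SE 0.10), which did not pass the test (limma, Benjamini-Hochberg adjusted p = 0.102). The median intensity of an array was 47.2 to 49.5, and Spearman correlations were 0.968 and 0.972 within groups and 0.956 to 0.969 between them. Paneth markers were bright, with 11 of 19 measured and summed intensities of 80922 to 85510 in the hypomorph and 82593 to 83520 in the wildtype, and 2 of the 11 were called higher. Fat markers were called higher for 7 of 7, with sums of 23718 to 24743 against 9061 to 9102, and enterocyte markers for 6 of 9, with sums of 26969 to 27767 against 19735 to 20023. Of 8 enteroendocrine markers 4 and of 5 stem cell markers 1 were called lower, and of 5 fibroblast markers 2 and of 4 T cell markers 2 higher. The 3′ to 5′ ratio of Actb, a sign of RNA length, was 17.7 and 19.3 in the hypomorph against 25.7 and 22.3, while for Gapdh the wildtype ratios of 47.6 and 48.8 lay between those of the hypomorph. The pancreas acinar sum was 193 to 199 on every array, and Xist read 4414 and 4510 in the hypomorph against 18.0 and 25.6 in the wildtype, so sex and genotype cannot be told apart. The part of these differences in the results below was not tested, and 0 members lie on chromosome X or Y.

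The question put to the synthetases was whether their transcript levels differed between hypomorph and wildtype Paneth cells. Of the 39 genes, 35 had a brightest probe set that passed the filter on dim signals, and 0 of these were called higher in the hypomorph and 0 lower, by limma at a Benjamini-Hochberg adjusted p under 0.05. Across all 11577 genes tested, 2.53% were called higher and 1.70% lower. Without adjustment 3 members (Wars, Eef1e1 and Mars2) had a p under 0.05, which is 8.57% of the 35, against 21.7% of all genes.

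The differences of the members lay close to 0. Their median, as hypomorph minus wildtype in log2(intensity + 32), was 0.0037, with 18 genes above 0 and 17 below and a range from -0.40 (Mars2) to 0.30 (Wars). The median over all genes tested was -0.024, and with the 3 dim members included the median of the 38 was 0.0018. Regardless of sign, the median difference was 0.10 (1.07-fold) for the members and 0.15 (1.11-fold) for all genes. The members were brighter than the average gene, with a median of 9.99 against 9.05 on the log2 scale, and their median SE was 0.115 against 0.137.

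Intervals show how large a difference the arrays leave room for. In 29 of the 35 members (82.9%) the 95% interval of the difference lay within 0.5 of 0 on the log2 scale, which is 1.41-fold, against 58.4% of all genes. The 6 members with wider intervals were Wars, Yars, Aimp2, Eef1e1, Iars2 and Mars2, and the widest reached -0.80 (Mars2). For these 6 the arrays leave room for a difference above 0.5, and the 3 dim genes have no interval. All hypomorph arrays stood above all wildtype arrays in 10 members (28.6%) and below them in 7 (20.0%), against 23.4% and 30.0% of all genes.

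**Figure D1:**
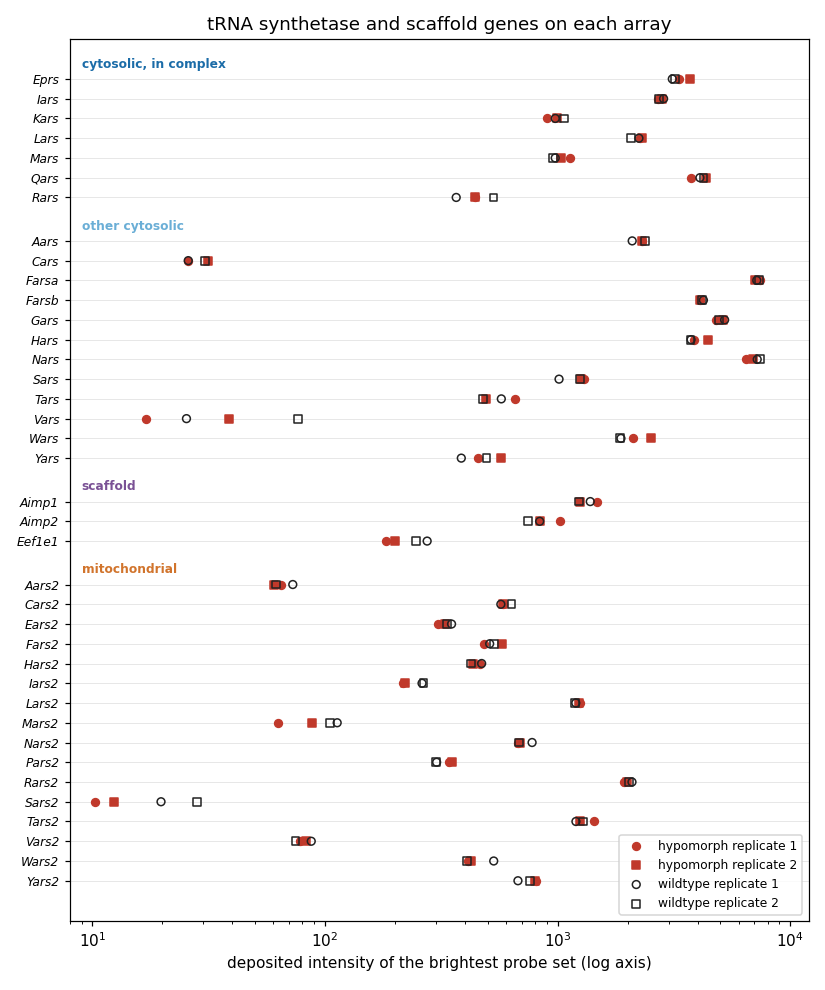
Deposited intensity of the brightest probe set of each of the 38 member genes on a log axis, with filled symbols for the 2 hypomorph arrays and open symbols for the 2 wildtype arrays, grouped by role. In Farsa (7093 to 7433) the symbols of the groups overlap, and in Sars2 (10.3 to 28.1) they stand apart; positions of different genes are not comparable as levels, since probe sets differ in response.

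In the cytosol 8 synthetases and the 3 scaffolds form the multi-synthetase complex, of which 7 enzymes were measured. None was called, against 2.53% higher and 1.70% lower of all genes. The median difference of these 7 enzymes was 0.0037 and their range ran from -0.11 (Kars) to 0.16 (Mars). Eprs, which joins the enzymes for glutamate and proline in 1 protein, read 3326 and 3703 in the hypomorph and 3115 and 3194 in the wildtype on its brightest probe set. The hypomorph arrays were both higher, by 0.15 (SE 0.077), which did not pass (limma, adjusted p = 0.298), and by 0.08 without hypomorph replicate 2. Mars, the methionine enzyme that also charges the initiator tRNA, read 1132 and 1038 against 977 and 959, a difference of 0.16 with an adjusted p of 0.423 in limma.

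The leucine enzyme Lars acts as a leucine sensor for mTORC1 besides its charging role. It differed by 0.08, with an interval from -0.10 to 0.26. The lysine enzyme Kars read 898 and 999 in the hypomorph against 978 and 1067, so the groups overlapped, and its difference was -0.11. The isoleucine enzyme Iars, whose promoter held the element, read 2710 and 2801 against 2858 and 2728. Its groups overlapped as well, and its difference of -0.02 had an interval from -0.19 to 0.15. The glutamine enzyme Qars differed by -0.04, and the arginine enzyme Rars by 0.00 with 443 on both hypomorph arrays against 367 and 531.

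Outside the complex 10 of the 12 cytosolic enzymes were tested, with a median of 0.079 and a range from -0.13 (Nars) to 0.30 (Wars). Wars, the tryptophan enzyme and a gene known to be induced by interferon gamma, had the smallest p-value among the members. It read 2107 and 2513 in the hypomorph and 1873 and 1859 in the wildtype, so both hypomorph arrays were higher and they also differed more from each other. The difference was 0.30 (SE 0.098, interval 0.08 to 0.52) and did not pass (limma, unadjusted p = 0.0126, adjusted p = 0.128). Without hypomorph replicate 1 it was 0.42 and passed, with an adjusted p of 0.0439 in limma, and without hypomorph replicate 2 it was 0.17 (adjusted p = 0.298). With the probe sets of a gene averaged it was 0.19 (adjusted p = 0.259). A fit without an array leaves 1 group with a single array, which is then assumed to vary like the other group.

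The serine enzyme Sars read 1302 and 1262 against 1015 and 1245, higher on both hypomorph arrays with the wildtype arrays apart from each other. Its difference was 0.18 (limma, adjusted p = 0.399), and it was 0.04 without wildtype replicate 1 and 0.33 without wildtype replicate 2. The histidine enzyme Hars read 3854 and 4434 against 3750 and 3734, a difference of 0.14 (limma, adjusted p = 0.34) that was 0.04 without hypomorph replicate 2 and 0.24 without hypomorph replicate 1. Nars, the asparagine enzyme, was the lowest of this group, with 6435 and 6933 in the hypomorph and 7222 and 7403 in the wildtype. The hypomorph was lower on both arrays, by 0.13, and the difference did not pass (limma, adjusted p = 0.246). A second Nars probe set lay the other way by 0.06, with 2117 and 1931 against 1922 and 1963 and overlapping groups. With the probe sets of Nars averaged the difference was -0.036.

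The phenylalanine enzyme is built from 2 kinds of subunit, Farsa and Farsb. Farsa read 7433 and 7093 against 7190 and 7334, with overlapping groups, a difference of 0.00 and an interval from -0.12 to 0.12. Farsb, with 4113 and 4096 against 4239 and 4192, differed by -0.04. The cysteine enzyme Cars, with 25.8 and 31.3 against 25.8 and 30.4, and the valine enzyme Vars, with 17.0 and 38.5 against 25.4 and 76.6, were too dim to be tested, and the arrays of both groups overlapped.

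The other 4 members with the element are enzymes outside the complex, and their differences ran from -0.03 to 0.20. Yars, the tyrosine enzyme, read 453 and 569 in the hypomorph and 386 and 495 in the wildtype, a difference of 0.20 with an interval from -0.16 to 0.56. Tars, the threonine enzyme, read 654 and 493 against 573 and 478, and differed by 0.11. For both genes the groups overlapped and the 2 arrays of a group lay further apart than the group means did. Aars, the alanine enzyme, differed by 0.05, with 2310 and 2307 against 2094 and 2384. Gars, the glycine enzyme, differed by -0.03, with 4820 and 5122 against 5229 and 4956. With Iars, 0 of the 5 genes that hold the element were called by limma, against 2.53% higher and 1.70% lower of all genes. At such shares 5 genes are too few for this count to tell them from other genes.

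**Figure D2:**
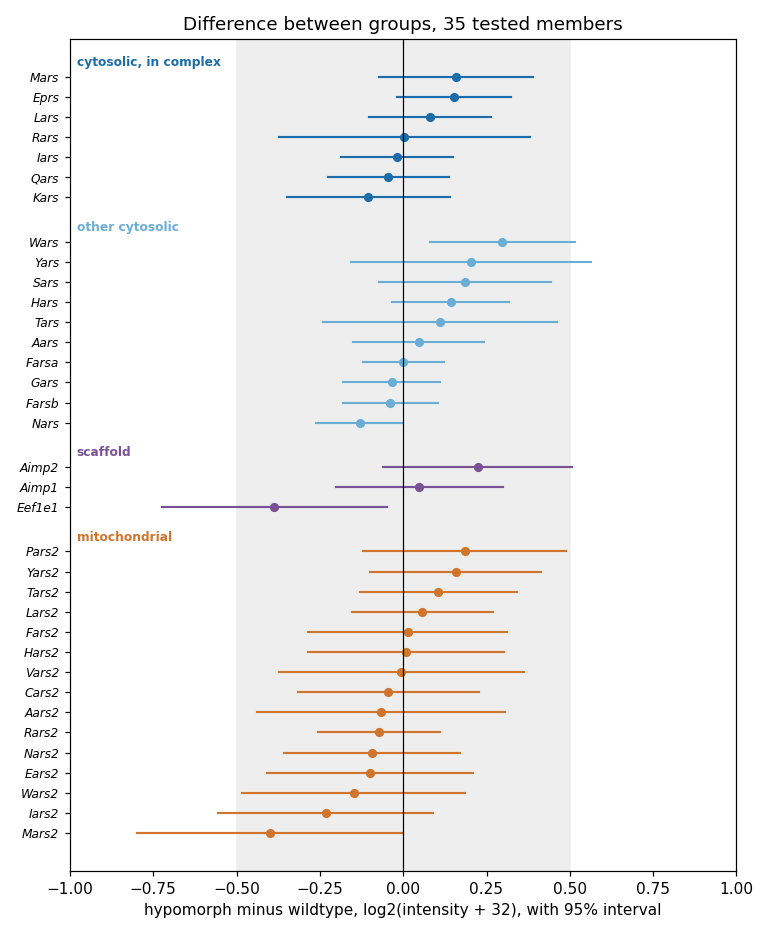
Log2 difference of intensity + 32 between the groups, hypomorph minus wildtype, for the 35 tested members with their 95% intervals, grouped by role and ordered by size; the grey band marks 0.5 on either side of 0. Points run from -0.40 (Mars2) to 0.30 (Wars), and 29 of 35 intervals stay inside the band.

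Of the 3 scaffold genes 0 were called by limma, against 2.53% higher and 1.70% lower of all genes. Of the 3, 1 stood at an unadjusted p under 0.05, against 21.7% of all genes. Eef1e1, the small scaffold also named p18, read 184 and 200 in the hypomorph and 275 and 247 in the wildtype. Both hypomorph arrays were lower, by 0.39 on the log2 scale (SE 0.15, interval -0.72 to -0.05), and the difference did not pass (limma, adjusted p = 0.188). Aimp2, the central scaffold of the complex, lay the other way, with 1025 and 842 against 838 and 746. Its difference was 0.22 (limma, adjusted p = 0.354), and the lower hypomorph array was just above the higher wildtype array; without hypomorph replicate 1 it was 0.09. Aimp1, whose cleaved form acts as a cytokine, read 1472 and 1245 against 1382 and 1238, with overlapping groups and a difference of 0.05.

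Of the 16 mitochondrial enzymes 15 were tested. By limma 0 were called, against 2.53% higher and 1.70% lower of all genes. Of the 15, 1 (6.67%) stood at an unadjusted p under 0.05, against 21.7% of all genes. The median of the 15 mitochondrial enzymes was -0.044, against 0.047 for the 17 cytosolic enzymes tested. The difference between these medians was not tested. Without wildtype replicate 1 the medians were 0.0145 and 0.0144, and the mitochondrial median was also above 0 with a stricter filter (0.0079) and with probe sets averaged (0.021). Mars2, the mitochondrial methionine enzyme, read 62.8 and 88.0 in the hypomorph and 113 and 105 in the wildtype. It was lower on both hypomorph arrays by 0.40 (SE 0.18, interval -0.80 to -0.0024), close to the level at which probe sets were left out, and did not pass (limma, adjusted p = 0.241); without hypomorph replicate 1 it was -0.23. Iars2, the isoleucine enzyme, read 217 and 221 against 261 and 265. The 2 arrays of each group lay close together, and the difference of -0.23 had an interval from -0.56 to 0.09 (limma, adjusted p = 0.396).

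At the other end stood Pars2, the mitochondrial proline enzyme, with 342 and 350 against 302 and 300 and a difference of 0.18. Yars2 differed by 0.16 on its brightest probe set. Its other tested probe set lay the other way by -0.16, with 240 and 255 in the hypomorph against 292 and 270, so the gene had no clear direction. Tars2 differed by 0.10 and Lars2 by 0.06. Fars2 and Hars2 differed by 0.01 each, and Vars2 by -0.01. Lower values were those of Cars2 (-0.04), Aars2 (-0.07), Rars2 (-0.07), Nars2 (-0.09), Ears2 (-0.10) and Wars2 (-0.15), and none of these 13 genes passed the test. Sars2, which charges mitochondrial serine tRNA, was too dim to be tested, with 10.3 and 12.3 in the hypomorph and 19.7 and 28.1 in the wildtype.

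Synthetases fall into 2 structural classes with unrelated catalytic folds, which the choice of members did not use. The 17 tested enzymes of class I, with Eprs counted there although its proline part is of class II, had a median of -0.0054, and the 15 of class II a median of 0.0079. Neither class held a called gene, against 2.53% called higher and 1.70% called lower over all genes. The arrays themselves also gave no common shift. For each tested member the deviation from its mean over the 4 arrays was taken. The median of these deviations was between -0.016 and 0.0022 on each array. The median difference between the 2 single arrays of a group, regardless of sign, was 0.087 in the hypomorph and 0.094 in the wildtype.

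Of the 76 member probe sets 58 were tested, and 1 was called, a second probe set of Eprs, against 3.71% of all 22519 probe sets called in either direction. It read 2490 and 2001 in the hypomorph and 1623 and 1592 in the wildtype. Both hypomorph arrays were higher, by 0.47 (SE 0.11, interval 0.22 to 0.71), with an adjusted p of 0.0466 in limma. Another Eprs probe set read 798 and 588 against 528 and 547, a difference of 0.33 (limma, adjusted p = 0.247). All 3 tested Eprs probe sets were thus higher on every hypomorph array than on any wildtype array. Their differences were 0.15, 0.33 and 0.47, and the brightest gave the smallest. The 3 read the same 4 samples, so they are not separate evidence. Over all genes, by brightest probe set, all hypomorph arrays stood above all wildtype arrays in 23.4%. The called Eprs probe set carries the suffix of probe sets that several transcripts share. Other probe sets carry a suffix for probes that may also match other sequences. Among them are the brightest of Wars, Farsb, Tars2 and Yars2 and those read below for Trib3, Eif4ebp1, Phgdh and Atf4.

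The call on this Eprs probe set was lost without hypomorph replicate 1 (a difference of 0.31, limma adjusted p = 0.163), without wildtype replicate 1 (0.087) and without wildtype replicate 2 (0.109). It was also lost under quantile normalization (adjusted p = 0.0511), median centring (0.0664), no filter (0.161) and no intensity trend (0.164).

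Probe sets of one gene differ in where on the transcript they lie, so they offer a check on a gene's direction. In 17 members with several tested probe sets, 40 in all, the probe sets stood on one side of 0 in 8 genes and on both sides in 9, with a median range of 0.19 within a gene. The 4 probe sets of Wars gave 0.30, 0.35, 0.23 and -0.09, of which the last, with 113 and 67.4 against 99.8 and 92.4, was the dimmest. Farsa was the one gene whose probe sets differed by over 0.5. Its dim second probe set read 108 and 118 against 54.3 and 86.6, a difference of 0.52 (limma, adjusted p = 0.17), beside 0.00 on the brightest. Lars2 showed a like pair, with 0.06 on the bright and 0.40 on the dim probe set.

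**Figure D3:**
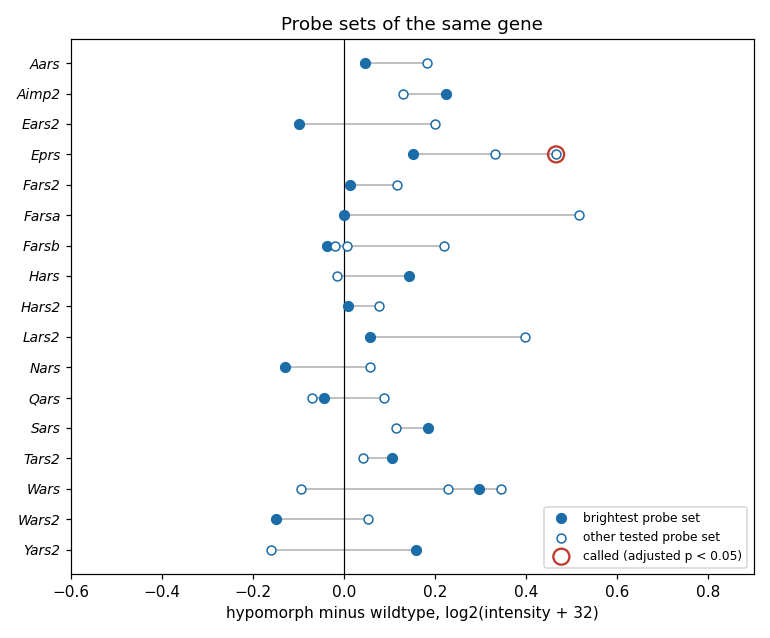
Log2 difference of intensity + 32 between the groups, hypomorph minus wildtype, for each tested probe set of the 17 members with several, with the brightest probe set filled and the called one ringed. The 3 probe sets of Eprs lie at 0.15, 0.33 and 0.47, and the 2 of Farsa at 0.00 and 0.52.

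Genes that work beside the synthetases were read from lists chosen by function, with earlier results of these data known. The shares below are therefore not independent of the data. Synthetase-like proteins and charging partners, such as amidotransferase subunits and editing factors, gave 0 calls among 15 tested by limma. Of all genes 2.53% were called higher and 1.70% lower. In this list 1 gene stood at an unadjusted p under 0.05, against 21.7% of all genes, and the median was -0.076. The lowest was Mtfmt, which formylates the mitochondrial initiator Met-tRNA after Mars2 has charged it. It read 176 and 174 in the hypomorph and 235 and 271 in the wildtype, lower on both arrays by 0.46 (limma, adjusted p = 0.134). Trmu, which modifies the wobble base of mitochondrial tRNAs, read 97.2 and 96.7 against 160 and 118, a difference of -0.39 (limma, adjusted p = 0.245).

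Elongation factors carry charged tRNA to the ribosome or move it along. Of 9 tested 0 were called by limma, against 2.53% higher and 1.70% lower of all genes. At an unadjusted p under 0.05 stood 0, against 21.7% of all genes, and the median was 0.021. The mitochondrial factors Gfm2 (0.37, adjusted p = 0.271 in limma) and Tsfm (0.29, adjusted p = 0.275) had the smallest p-values. The cytosolic carrier of charged tRNA, Eef1a1, read 11487 and 12776 against 12738 and 13029, a difference of -0.09 with overlapping groups.

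Among 31 tested genes of tRNA transcription, processing and export, 0 were called higher and 1 (3.23%) lower, near the 1.70% called lower over all genes, and the list had a median of -0.033. The called gene was Bdp1, a subunit of the factor that places RNA polymerase III on tRNA genes. It read 1438 and 1451 in the hypomorph and 1850 and 1986 in the wildtype and fell by 0.40 on the log2 scale (SE 0.089, limma adjusted p = 0.0393). Both hypomorph arrays lay well under both wildtype arrays. The call was lost without hypomorph replicate 1 (adjusted p = 0.0871), wildtype replicate 1 (0.0854) and wildtype replicate 2 (0.232), and also with no filter (0.110), with no intensity trend (0.140) and with probe sets averaged (0.246), where the difference was -0.22. Polr3g, a subunit of RNA polymerase III itself, read 178 and 238 against 324 and 308, a difference of -0.55 that did not pass (limma, adjusted p = 0.102). It was -0.73 without hypomorph replicate 2 (adjusted p = 0.0330, which passes) and -0.37 without hypomorph replicate 1 (0.339).

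Target genes of the integrated stress response other than synthetases held several called genes. Of 38 listed, 32 were tested, 5 were called higher and 0 lower, against 2.53% and 1.70% of all genes. Their median was 0.061, and 14 of the 32 (43.8%) stood at an unadjusted p under 0.05 in either direction, against 21.7%. Of these 14, Ddit4 (-0.55), Cth (-0.30), Herpud1 (-0.18) and Slc38a2 (-0.17) were lower in the hypomorph, and the others were higher. Chac1, which degrades glutathione, read 1476 and 1761 in the hypomorph and 498 and 545 in the wildtype. It rose by 1.57 on the log2 scale (SE 0.12, limma adjusted p = 7.595e-05), and both hypomorph arrays were far above both wildtype arrays.

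Trib3, a pseudokinase that feeds back on the response, read 338 and 350 against 189 and 167 and rose by 0.84 (limma, adjusted p = 0.0140). Stc2, a secreted glycoprotein, read 826 and 789 against 446 and 444 and rose by 0.81 (limma, adjusted p = 0.00448). In both genes the arrays of a group lay close together. Eif4ebp1, an inhibitor of cap-dependent translation, read 3014 and 2583 against 2133 and 2085 and rose by 0.40 (limma, adjusted p = 0.0439). Phgdh, the first enzyme of serine synthesis, read 2532 and 2731 against 2041 and 2064 and rose by 0.35 (limma, adjusted p = 0.0439).

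Chac1 and Stc2 were called without each array in turn. Trib3 was lost without wildtype replicate 2 (adjusted p = 0.0712), and without that array the list had 2 calls. Eif4ebp1 was lost without hypomorph replicate 1 (0.151), wildtype replicate 1 (0.102) or wildtype replicate 2 (0.142), and Phgdh without hypomorph replicate 2 (0.0780), wildtype replicate 1 (0.172) or wildtype replicate 2 (0.155). Eif4ebp1 was also lost under median centring (0.0613), and both it (0.150 and 0.170) and Phgdh (0.127 and 0.169) with no filter and with no trend, while Trib3 was lost with no filter (0.0562). With the probe sets of a gene averaged the list had 1 call, Chac1, with Trib3 at 0.47, Stc2 at 0.39, Phgdh at 0.31 and Eif4ebp1 at 0.21. Fat and enterocyte markers moved with these genes, as given above, and their part in the result was not tested.

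Other well-known targets were not called. Atf4 read 7132 and 5652 against 5224 and 5148, a difference of 0.29 that did not pass (limma, adjusted p = 0.124). Asns, which makes asparagine, differed by 0.11, Psat1 of serine synthesis by 0.19, and the stress factor Ddit3 by 0.06. The lowest target was Ddit4, an inhibitor of mTORC1, with 1451 and 2009 against 2280 and 2760 and a difference of -0.55 (limma, adjusted p = 0.0697). The 5 synthetases with the element ranged from -0.03 to 0.20, beside a median of 0.061 for the 32 targets, of which 12 lay below 0.

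**Figure D4:**
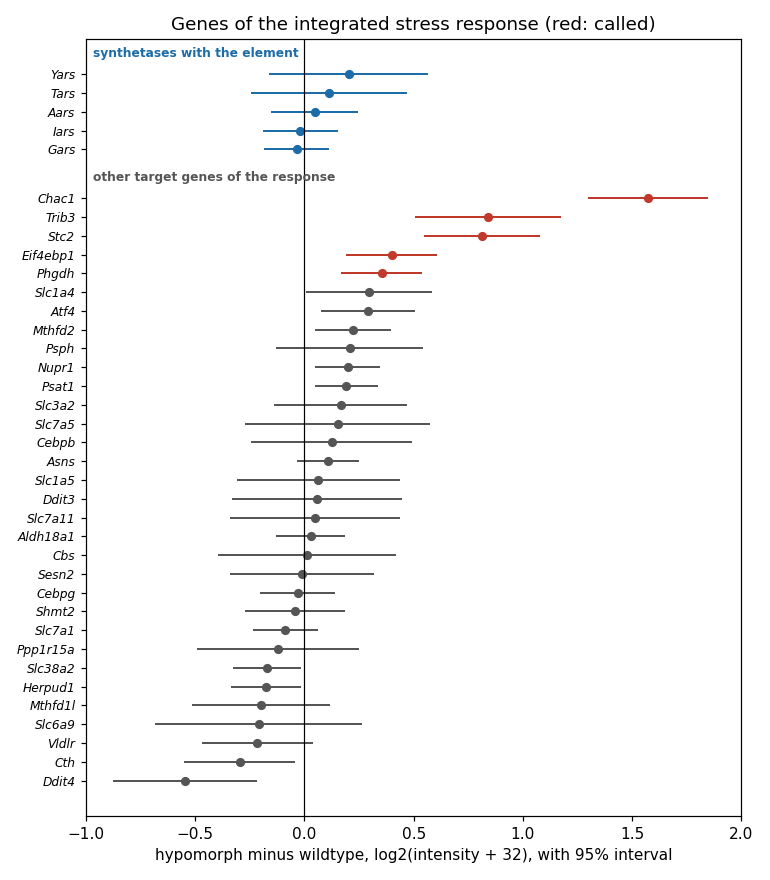
Log2 difference of intensity + 32 between the groups, hypomorph minus wildtype, with 95% intervals, for the 5 synthetase genes whose promoter window holds the response element and for the 32 tested targets of the integrated stress response, with called genes in red. Chac1 (1.57), Trib3 (0.84) and Stc2 (0.81) have the highest values among the targets, whose median is 0.061, and the synthetases lie between -0.03 and 0.20.

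Chac1 and Trib3 lie on chromosome 2. Of the 50 tested genes nearest to Chac1, 12 (24%) were called, 7 higher and 5 lower, and of the 50 nearest to Trib3, 0. Off that chromosome 3 of 29 targets were called, with a median of 0.049. The part of position in the Chac1 result was not tested, and 0 synthetase genes lie on chromosome 2. Eprs, Iars2, Farsb and Mars2 share chromosome 1 with Atg16l1, and among the 50 tested genes nearest to each of them 3, 3, 2 and 1 were called in that order, with 4 near Atg16l1 itself, while 2.53% and 1.70% of all genes were called higher and lower.

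The kinases of the response and their partners gave 0 calls among 15 tested by limma, with 4 (26.7%) at an unadjusted p under 0.05, against 21.7% of all genes, and a median of -0.0024. Eif2ak4, the kinase that binds uncharged tRNA, read 349 and 401 in the hypomorph and 630 and 489 in the wildtype. Both hypomorph arrays were lower, by 0.53 (SE 0.15), and the difference did not pass (limma, adjusted p = 0.0897). It too lies on chromosome 2, where 9 of its 50 nearest tested genes (18%) were called, 6 higher and 3 lower. Over all genes 2.53% were called higher and 1.70% lower, and the part of position in the Eif2ak4 value was not tested. Eif2b1, a subunit of the exchange factor that the response inhibits, read 674 and 775 against 927 and 992, a difference of -0.39 (limma, adjusted p = 0.0971).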

How the data were processed

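Per the labels, RNA from laser-captured cells was extracted (PicoPure), then amplified and biotin-labelled (RiboAmp plus) for 1-colour arrays. The authors deposited 1 linear intensity per probe set and array; the sources used here give no scaling, background correction or detection calls. Trimmed means agreed within 1.02-fold, so no normalization was added. Log2(intensity + 32) was fitted for all 4 arrays in limma 3.58.1 (R 4.3.3, lmFit on group, eBayes with trend, 2 residual and 7.81 prior degrees of freedom). The fit took the 22519 probe sets at or above the median mean log2 value of 6.32, with Benjamini-Hochberg adjustment over them. It was also run on simulated data. These were drawn with its own fitted spread, independent between arrays, so that run checks the code and not these assumptions. Tests were two-sided. A gene was its brightest probe set. Probe sets were named only from annotation with 1 symbol. Named in full were called members, those with the smallest p-values up to 10, and members whose probe sets differ by over 0.5. Per list, up to 4 called genes or the 2 with the smallest p-values were named. Other members are given by value. Eef1a1, Xist and the extra probe sets of Wars, Lars2, Nars and Yars2 were chosen after their values were seen. So were Phgdh, Ddit4, Cth, Herpud1, Slc38a2, Atf4, Asns, Psat1 and Ddit3. The members and lists were chosen with earlier results of these data known. Alternatives are in the closing section. Sequences are from RefSeq, and 1 further stretch is not reported here.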

Additional observations from a re-analysis of the deposited data

How the results depend on the processing

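With 2 arrays per group the precision rests mostly on the spread shared across probe sets. No member was called under any alternative except Wars, called with the replicate block (1 gene called higher, adjusted p = 0.0133 in limma) and without hypomorph replicate 1, so leaving out arrays gave 0 to 1 members higher. Replicate numbers are shared by the groups, but same-numbered arrays make only 2 pairs (correlation of replicate differences 0.264). Each pair holds both genotypes and so not the same mouse, and whether it shares a batch was not tested. The block raised all calls from 459 higher and 377 lower to 1489 and 1717, called 3 member probe sets, 1 charging partner, 2 tRNA transcription genes, 10 stress response targets and 4 kinases and partners, and called Atg16l1 (-0.35, adjusted p = 0.017 in limma). Other probe set calls were 183 higher and 120 lower with no filter, 192 and 131 with no trend, and 244 lower with the stricter filter, and leaving out arrays gave 317 to 706 higher and 178 to 942 lower. Called member probe sets fell from 1 to 0 with quantile normalization, median centring, no filter or no trend, and were 0 to 2 without an array. Stress response targets fell from 5 to 2 with no filter, 3 with no trend, 1 with probe sets averaged, 4 with median centring or the stricter filter, and 3 without chromosome 2 genes (an alternative chosen after seeing the data), and were 2 to 7 without an array. The tRNA transcription call fell to 0 with no filter, no trend or averaging and was 0 to 2 without an array; elongation factors gave 0 to 1 and kinases and partners 0 to 1. The median of all members was 0.030 with the stricter filter and 0.050 with averaging. The cytosolic median was 0.0099 with no filter and 0.014 to 0.046 without an array. The mitochondrial median was 0.0079 with the stricter filter, 0.021 with averaging and -0.085 to 0.015 without an array. Farsa crossed 0 under quantile normalization (0.016), averaging (0.051) and without an array (-0.034 to 0.033, above 0 without hypomorph or wildtype replicate 2). The cause of these shifts was not tested.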
